A study of Mus musculus with 10 samples.

Results

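The nuclear genes of the respiratory chain encode most subunits of the 5 complexes of oxidative phosphorylation in the inner mitochondrial membrane. They were taken by symbol from a table of read counts (the Nduf a, b, c, s and v series, Cox4i and Cox5 to Cox8, Uqcr, Atp5 and Sdha to Sdhd, without names that contain -ps) and came to 92 of the 56893 genes listed. By role 41 belonged to complex I, 4 to complex II, 8 to complex III, 21 to complex IV and 18 to complex V, with Ndufa4 and Ndufa4l2 placed in complex IV, where the product of Ndufa4 acts. The study sequenced poly(A) RNA of primary T and B cells from mouse spleen. In the guide groups CRISPR interference, the blocking of transcription by nuclease-dead Cas9 held at a promoter by a guide, was aimed at promoters of Pou2f1. The product of Pou2f1, Oct-1, is a DNA-binding protein with a POU domain that recognises the octamer sequence. The 5 groups were T cells with the guide sgRNA-P1 (P1 promoter), mock T cells, sgRNA-P1 B cells, sgRNA-P2 B cells (guide at the P2 promoter) and mock B cells. The sources used here do not give the strain, age or sex of the mice, how the cells were selected, what the mock cells received, or whether samples came from separate animals or cultures. Within each group the 2 deposited columns were closer to each other than sampling noise allows for separate libraries, so they were added up as 1 sample, and no comparison of 2 groups has a replicate check.

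Complex I (NADH dehydrogenase) and complex II (succinate dehydrogenase) pass electrons to ubiquinone, complex III (cytochrome bc1) passes them on to cytochrome c, and complex IV (cytochrome c oxidase) hands them to oxygen. Complexes I, III and IV pump protons as they do so, and complex V (ATP synthase) lets the protons back through to make ATP. Complexes I, III, IV and V also hold subunits encoded by mitochondrial DNA, whereas all of complex II is nuclear, and subunits of both genomes are assembled together. The nuclear genes lie on many chromosomes, and NRF1, the ETS factor GABP, YY1 and estrogen-related receptors are known to bind promoters of many of them. Resting lymphocytes rely largely on oxidative phosphorylation for ATP.

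The summed libraries held 39352816 reads in sgRNA-P1 T cells, 71858511 in mock T cells, 49066261 in sgRNA-P1 B cells, 28118839 in sgRNA-P2 B cells and 33842813 in mock B cells. Pou2f1 itself had 66.1 CPM (counts scaled to library size with TMM factors) in sgRNA-P1 T cells against 138 in mock T cells, and 91.1 and 86.5 CPM in sgRNA-P1 and sgRNA-P2 B cells against 157 in mock B cells, so it was lower in each library labelled with a guide. The 10 T cell markers summed to 4560 and 4590 CPM in the T libraries and 49.1 to 50.3 CPM in the B libraries, and the 10 B cell markers to 34.6 and 37.9 CPM in the T libraries and 12700 to 12800 CPM in the B libraries. Natural killer markers were at 81.8 and 86.2 CPM in the T libraries and 6.68 to 7.33 CPM in the B libraries, plasma cell markers at 66.5 and 68.2 CPM in the T libraries and 193 to 204 CPM in the B libraries, and myeloid markers at 10.3 and 9.31 CPM in the T libraries and 17 to 18.7 CPM in the B libraries. Reads of the mitochondrial genome made up 2.38% of the library of sgRNA-P1 T cells, 2.5% of mock T cells, 3.79% of sgRNA-P1 B cells, 2.85% of sgRNA-P2 B cells and 2.54% of mock B cells. sgRNA-P1 B cells thus stood apart from the other 4 libraries in this share.

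Promoters are shown for 4 genes that the results below turn on or that differ in the motifs they hold. RefSeq promoter windows of 300 bases on GRCm38.p6, from 250 before the start to 50 after it, were found for 69 of the 92 genes (74 windows). The 6 motifs named here were searched on both strands as exact matches, and overlapping matches were kept. The NRF1 motif GCGCATGC was in 13.5% of the windows of respiratory chain genes, against 5.6% of 10407 windows of the other genes that reached 5 CPM here and 2.71% of all 32851 windows. The YY1 motif AAGATGGC was in 13.5%, against 4.84% and 2.75%, and the estrogen-related receptor motif AAGGTCA in 10.8%, against 3.04% and 4.72%. The ETS motif CCGGAAG was in 21.6%, against 19.3% and 8.86%, and the Sp1 motif GGGCGG in 37.8%, against 63% and 35.7%. The octamer ATGCAAAT was in 1 of the 74 windows (1.35%, against 1.31% and 1.74%), that of Ndufs4. There were 6 windows that held 3 of the motifs, those of Atp5f1e, Atp5me, Atp5mg, Cox6a1, Sdhb and Sdhd. The first 280 bases of 4 windows follow, 5′ to 3′, with motif matches in capitals: Cox7a2l, which had the highest T over B ratio in the model below among genes that reached 5 CPM, Ndufs5, which had the lowest ratio of sgRNA-P1 over mock in B cells, Ndufs4, with the octamer, and Atp5me, with overlapping NRF1 motifs on both strands followed by an ETS and an estrogen-related receptor motif.
Cox7a2l (chr17:83514304-83514583, minus strand): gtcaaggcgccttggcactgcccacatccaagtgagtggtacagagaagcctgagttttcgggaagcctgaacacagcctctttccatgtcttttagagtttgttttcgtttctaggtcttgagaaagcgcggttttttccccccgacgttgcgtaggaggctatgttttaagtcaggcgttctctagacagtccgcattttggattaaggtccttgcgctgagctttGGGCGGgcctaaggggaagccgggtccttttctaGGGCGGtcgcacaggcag
Ndufs5 (chr4:123718157-123718436, minus strand): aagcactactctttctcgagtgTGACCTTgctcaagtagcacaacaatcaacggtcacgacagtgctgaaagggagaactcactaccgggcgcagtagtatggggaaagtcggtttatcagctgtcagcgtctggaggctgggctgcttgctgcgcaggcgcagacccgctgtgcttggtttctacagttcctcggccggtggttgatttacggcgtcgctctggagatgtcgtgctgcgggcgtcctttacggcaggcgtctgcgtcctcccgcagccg
Ndufs4 (chr13:114388065-114388344, minus strand): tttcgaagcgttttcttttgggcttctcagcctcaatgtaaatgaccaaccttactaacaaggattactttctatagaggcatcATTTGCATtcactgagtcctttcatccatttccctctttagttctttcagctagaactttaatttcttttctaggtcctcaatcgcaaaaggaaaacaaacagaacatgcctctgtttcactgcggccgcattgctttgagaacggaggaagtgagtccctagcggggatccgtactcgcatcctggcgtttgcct
Atp5me (chr5:108434370-108434649, minus strand): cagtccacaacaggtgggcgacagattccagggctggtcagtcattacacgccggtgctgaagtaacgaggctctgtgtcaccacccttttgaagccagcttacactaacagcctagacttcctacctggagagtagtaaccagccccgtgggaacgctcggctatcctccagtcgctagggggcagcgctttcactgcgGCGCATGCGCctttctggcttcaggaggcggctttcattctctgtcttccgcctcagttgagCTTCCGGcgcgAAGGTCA
In these letters Cox7a2l shows the Sp1 motif at 2 places and Ndufs5 shows the estrogen-related receptor motif on the other strand. The window of Ndufs4 also holds the YY1 motif, in the bases past the printed ones. A match describes the sequence and is not a measurement of binding.

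Of the 92 genes, 89 had a read and 76 reached 5 CPM in at least 1 library, 73 of them in all 5 libraries; the other 16 stayed under 5 CPM in every library and enter none of the ratio counts below. Levels of different genes are given as TPM, which divides reads by the merged exon length of the deposited table and scales each library to the same total. The summed TPM of all 92 genes was 10040 in sgRNA-P1 T cells, 9796 in mock T cells, 7181 in sgRNA-P1 B cells, 7902 in sgRNA-P2 B cells and 8321 in mock B cells. Complexes I, IV and V each held 27.1% to 28.8% of this sum in every library, complex III 11.2% to 11.5% and complex II 4.88% to 5.68%. Both T libraries were above all 3 B libraries in the sum of every complex, and sgRNA-P1 B cells had the lowest sum in every complex. In bulk samples a lower share of a cell type and less RNA per cell cannot be told apart.

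**Figure D1:**
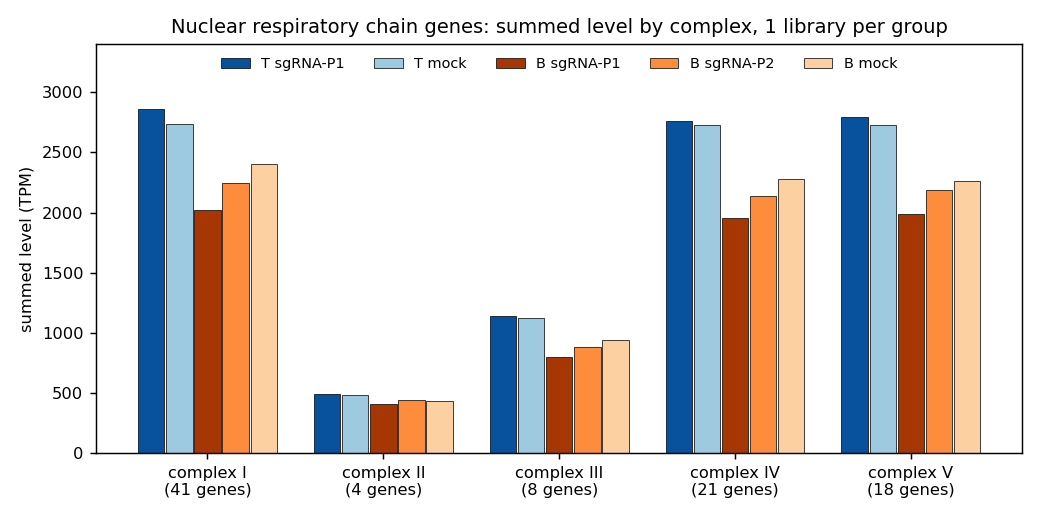
Summed TPM of the nuclear genes of each complex (y axis, from 0) in the 5 libraries, with 1 bar per library and no error bars because each group is 1 library. Complex I reads 2857 in sgRNA-P1 T cells, 2734 in mock T cells, 2019 in sgRNA-P1 B cells, 2248 in sgRNA-P2 B cells and 2401 in mock B cells, and the other complexes show the T bars above the B bars.

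In both T libraries the highest level was that of Cox7a2l, which encodes a factor that joins complexes III and IV into supercomplexes, at 614 TPM in sgRNA-P1 T cells, 615 in mock T cells, 326 in sgRNA-P1 B cells, 331 in sgRNA-P2 B cells and 357 in mock B cells. Atp5f1a and Atp5f1b, the alpha and catalytic beta subunits of ATP synthase, were next, and Atp5f1a led in all 3 B libraries. Atp5f1a had 549 and 564 TPM in sgRNA-P1 T cells and mock T cells, and 414, 465 and 469 TPM in sgRNA-P1, sgRNA-P2 and mock B cells. Atp5f1b had 473 and 477 TPM in the T libraries and 361, 383 and 400 TPM in the B libraries in the same order. The most abundant genes of the other complexes by mean TPM were Ndufb11, an accessory subunit of complex I, at 164 to 201 TPM, Uqcrh, the hinge protein of complex III, at 195 to 331 TPM, and Sdha, the flavoprotein subunit of complex II, at 200 to 218 TPM. All 3 had their lowest value in sgRNA-P1 B cells and their highest in sgRNA-P1 T cells, and Sdha varied least among them.

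Of the tissue-restricted isoforms, few had more than traces. Cox4i1, the general form of subunit 4, had 323 and 316 TPM in sgRNA-P1 T cells and mock T cells, and 211, 248 and 271 TPM in sgRNA-P1, sgRNA-P2 and mock B cells, while Cox4i2, a form known from lung, had 3 reads in each T library and none in the B libraries. Cox6b1 had 195 to 263 TPM and Cox6b2, a testis form, 0.51 to 1.47 TPM. Cox7a2 had 73.3 to 120 TPM and Cox7a1, the heart and muscle form, 3.82 to 8.8 TPM. Cox8a had 332 to 404 TPM, Cox8b at most 4 reads in any library, and Cox8c and Cox7b2 no read. Ndufa4 had 91 to 127 TPM and Ndufa4l2 1 read in all. Cox6a1 had 328 and 331 TPM in the T libraries and 233, 258 and 277 TPM in the B libraries, and Cox6a2, the heart and muscle form, had 25 reads in sgRNA-P1 T cells and 44 in mock T cells, against 1, 0 and 0 reads in sgRNA-P1, sgRNA-P2 and mock B cells. With a floor of 3 reads for the mock B library, the level of Cox6a2 in mock T cells (0.61 CPM) was at least 6.88-fold higher. The model's fitted fold for it is no bound. Of its exon bases 10.3% overlap Itgad on the other strand, and the sources used here do not give the strand setting of the counting. The 3 genes of the c-ring subunit of ATP synthase encode the same mature protein, and Atp5mc3 (117 to 187 TPM) and Atp5mc2 (141 to 171 TPM) were above Atp5mc1 (14.4 to 22.1 TPM).

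T cells were compared with B cells in a model over the 5 libraries with cell type and guide as terms (edgeR's quasi-likelihood test, 2 residual degrees of freedom, Benjamini-Hochberg adjustment over 17581 genes). The 2 T and 3 B libraries are the units, and the p-values measure only the spread between these libraries. Of 83 respiratory chain genes tested, 51 were higher in T cells (61.4%, against 32.4% of all genes tested) and 4 were lower (4.82%, against 31.8%). Genes higher in T cells were 21 of 37 in complex I, 2 of 4 in complex II and 5 of 8 in complex III. They were 10 of 16 in complex IV and 13 of 18 in complex V. Among these 13 were all 5 Atp5f1 genes, Atp5f1a to Atp5f1e. The median log2 ratio of T over B in the model was 0.23 over the 83 genes and 0.01 over all genes. Without the library of sgRNA-P1 T cells the count called fell to 22 of 84 genes tested. In that setting 18 were higher (21.4%, against 23.9% of all genes), so the share of genes higher in T cells was no longer above that of all genes, and 4 were lower (4.76%, against 23%). DESeq2 called 40 genes higher (48.2%, against 27.5% of all genes) and 1 lower (1.2%, against 28.1%).

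By sample, the 2 T libraries were both above all 3 B libraries in 55 of the 76 genes that reached 5 CPM (72.4%, against 42.6% of 10964 genes) and both below in 2, Ndufb2 and Ndufs8 (2.63%, against 40.1%). The median gene ranged over 0.07 on the log2 scale between the T libraries and 0.21 between the B libraries, and the mean of the T libraries stood 0.26 above the mean of the B libraries. Without sgRNA-P1 B cells, 56 genes had both T libraries above (73.7%, against 45.2%) and 5 both below (6.58%, against 42.5%). In mock T cells against mock B cells the median log2 ratio was 0.16 (0.02 over all 10804 genes). There were 61 genes higher and 15 lower, against 5571 and 5233 over all genes. The 95% counting intervals of the respiratory chain genes lay above 0 in 41 genes (all genes 40%) and below 0 in 5 (all genes 36.9%). Past 1.5-fold were 2 genes higher (Ndufv3, Cox7a2l) and 2 lower (Ndufb1, Ndufb2), against 18.6% and 18.4% of all genes. The share with an interval above 0 was 53.9% and the share below 0 was 6.58% of the 76 genes.

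The second pair, sgRNA-P1 T cells against sgRNA-P1 B cells, shares no library with the mock pair. Its median log2 ratio was 0.36 (0.02 over all 10827 genes). There were 71 genes higher and 5 lower, against 5538 and 5289 over all genes. The intervals lay above 0 in 61 genes (80.3%, against 40.1% of all genes) and below 0 in 2 (2.63%, against 38.4%). Past 1.5-fold were 21 genes higher (27.6%, against 20% of all genes) and none lower (19.6% of all genes), where the mock pair had 2 and 2. In both pairs T was higher in 59 of the 76 genes (4916 of 10701 genes in all) and lower in 3 (4618 in all). The intervals lay above 0 in both pairs in 41 of the 76 genes (35.1% of 10701 genes in all). They lay below 0 in both in 1, Ndufs8 (32.6% in all). By complex, the 17 genes of complex V were higher in both pairs in 16 cases and the 8 of complex III in 7. The 7 core subunits of complex I, which carry the electron path from NADH to ubiquinone, had a median of -0.05 in the mock pair (3 higher, 4 lower) and 0.24 in the sgRNA-P1 pair (5 higher, 2 lower), while the 28 other complex I genes had 0.17 and 0.54.

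**Figure D2:**
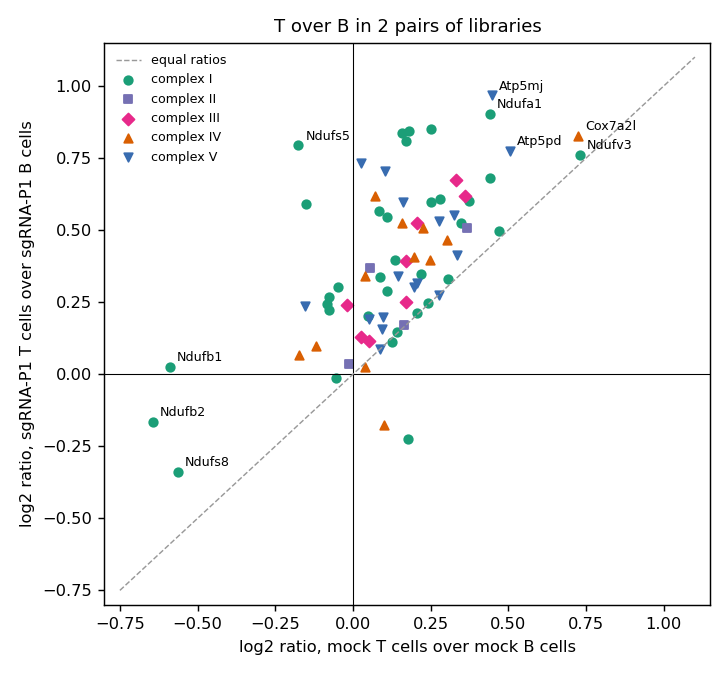
Log2 ratio of T over B for the 76 genes that reached 5 CPM, in the mock pair (x axis) and the sgRNA-P1 pair (y axis); each point is 1 gene, with shape and colour by complex, and the dashed line marks equal ratios. Cox7a2l and Ndufv3 lie near the line at the upper right, Ndufs8 and Ndufb2 at the lower left, and most points lie above the line.

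Cox7a2l (chromosome 17, 83809347 to 83824759 in the deposited table) had the highest ratio in the model among genes that reached 5 CPM. It had 251 and 252 CPM in sgRNA-P1 T cells and mock T cells, and 142, 141 and 153 CPM in sgRNA-P1, sgRNA-P2 and mock B cells, with no overlap between cell types. Its log2 ratio in the model was 0.77 ± 0.05 (SE; adjusted p = 1.57e-09 by edgeR's quasi-likelihood test, T higher in both library pairs). Ndufv3, an accessory subunit at the NADH-binding tip of complex I (chromosome 17, 31739089 to 31750305), had 46.1 and 44.9 CPM in the T libraries against 27.2, 26.4 and 27 CPM in the B libraries, and a log2 ratio of 0.75 ± 0.07 (SE; adjusted p = 1.02e-07 by edgeR). Both genes were higher in T cells in each pair, with log2 ratios in the mock and sgRNA-P1 pairs of 0.73 and 0.83 for Cox7a2l and 0.73 and 0.76 for Ndufv3. Atp5pd, the stalk subunit d of ATP synthase, had 96.4 and 89.3 CPM in the T libraries against 56.3, 56.3 and 63 CPM in the B libraries (model 0.65 ± 0.06, SE; adjusted p = 2.74e-07 by edgeR). Atp5mj, a small subunit of ATP synthase, and Ndufa1, a membrane subunit of complex I encoded on the X chromosome, were higher in T cells by 0.65 each in the model (adjusted p = 3.84e-05 and 5.34e-05 by edgeR), with larger ratios in the sgRNA-P1 pair (0.97 and 0.90) than in the mock pair (0.45 and 0.44). Cox6c2, at 0.44 to 1.43 CPM, was also called (0.87 ± 0.35, SE; adjusted p = 0.0397 by edgeR), on 21 to 103 reads per library.

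Lower in T cells were Ndufs8, a core iron-sulfur subunit of complex I, Ndufb2 and Ndufb1, accessory subunits of complex I, and Atp5if1, the inhibitor that blocks ATP hydrolysis by ATP synthase. Ndufs8 had 28.5 and 29.8 CPM in sgRNA-P1 T cells and mock T cells, and 36.1, 38.6 and 44 CPM in sgRNA-P1, sgRNA-P2 and mock B cells, and a log2 ratio of -0.48 ± 0.07 (SE; adjusted p = 3.53e-05 by edgeR). Ndufs1, another core iron-sulfur subunit, was higher in T cells, with a log2 ratio of 0.12 ± 0.05 (SE; adjusted p = 0.0449 by edgeR). Ndufb2 (-0.44 ± 0.15, SE; adjusted p = 0.0157 by edgeR) had 5.08 and 4.77 CPM in the T libraries against 5.71, 6.44 and 7.45 CPM in the B libraries. Ndufb1 had 16.2 and 13.4 CPM in the T libraries against 15.9, 17.8 and 20.1 CPM in the B libraries, which overlap, and 12.7% of its exon bases overlap Cpsf2. Atp5if1 was at 2.95 and 2.56 CPM in the T libraries against 3.65, 3.52 and 4.11 CPM in the B libraries, and 69.6% of its exon bases overlap Gm12999 on the other strand, so its value is uncertain.

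Among genes that did not pass the test, Sdha was at 249 and 249 CPM in the T libraries against 243, 251 and 251 CPM in the B libraries (log2 ratio -0.01 ± 0.05, SE; adjusted p = 0.849 by edgeR). The other subunits of complex II were Sdhb, the iron-sulfur subunit, and Sdhc and Sdhd, the membrane anchors. Sdhb and Sdhc were higher in T cells by 0.19 and 0.40 (adjusted p = 0.0237 and 7.08e-05 by edgeR), and Sdhd had 0.12 (adjusted p = 0.131 by edgeR). Cox7c and Cox5b, nuclear subunits of complex IV, had 0.01 and -0.01.

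sgRNA-P1 B cells had lower levels of most respiratory chain genes than mock B cells. The median log2 ratio over the 76 genes was -0.19 (-0.01 over all 10062 genes). There were 68 genes lower and 8 higher, against 5231 and 4831 over all genes. The 95% counting interval lay below 0 in 46 genes (60.5%, against 15.6% of all genes) and above 0 in 1, Ndufa12 (17.6% of all genes). By complex the medians were -0.26 in I, -0.08 in II, -0.22 in III, -0.20 in IV and -0.13 in V. The ratio of summed CPM was -0.18 in complex I (interval -0.21 to -0.16), -0.18 in complex III (-0.22 to -0.13), -0.18 in complex IV (-0.22 to -0.15), -0.14 in complex V (-0.16 to -0.12) and -0.07 in complex II (-0.12 to -0.03). Past 1.5-fold lower were 2 genes, Ndufs5 and Ndufb9 (2.63%, against 0.258% of all genes), and none was past 1.5-fold higher (0.477% of all genes). Of this pair of libraries both genes reached 5 CPM only in mock B cells, where they were higher, so no excess is read from these 2. The differences are thus small per gene, mostly within 1.5-fold, and rest on 1 library a group.

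Ndufs5 (chromosome 4, 123606503 to 123611995), an accessory subunit at the intermembrane face of complex I, had 3.01 CPM in sgRNA-P1 B cells, 4.16 in sgRNA-P2 B cells and 5.23 in mock B cells, a log2 ratio for sgRNA-P1 over mock of -0.80 (interval -1.27 to -0.33). In T cells it had 5.23 CPM with sgRNA-P1 and 4.64 in mock cells. Its copy Ndufs5-ps had more reads than the gene itself, 318 against 145 in sgRNA-P1 B cells, and had a ratio of -0.37, so reads may be divided between them and the level of Ndufs5 is uncertain. Ndufb9 had 4.83 CPM in sgRNA-P1 B cells and 7.54 in mock B cells, a log2 ratio of -0.64 (interval -1.02 to -0.27), and 19.5% of its exon bases overlap Gm49356. Both are low genes at the edge of the 5 CPM filter, which they passed through mock B cells and not through sgRNA-P1 B cells. At higher levels the lowest ratios were those of Ndufa2, at 19.8 CPM with sgRNA-P1 against 28.8 in mock B cells (-0.54, interval -0.72 to -0.35), and Atp5f1e, the epsilon subunit in the stalk of ATP synthase, at 38 CPM against 54.4 (-0.52, interval -0.65 to -0.38). Ndufc1 and Ndufs6, accessory subunits of complex I, followed, with log2 ratios of -0.52 and -0.50. Ndufa12, an accessory subunit of complex I, stood alone above 0, at 16.1 CPM against 12.9 (0.32, interval 0.07 to 0.56); Ndufa10, Ndufc2 and Cox5a were at 0.07, 0.05 and 0.10, with intervals that include 0.

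The sgRNA-P2 library had smaller differences from the same mock B library. The median log2 ratio was -0.08 (0.00 over all 10061 genes). There were 62 genes lower and 14 higher, against 5195 and 4866 over all genes. The interval lay below 0 in 13 genes (17.1%, against 6.37% of all genes) and above 0 in none (5.19% of all genes). None was past 1.5-fold (0.129% of all genes higher, 0.149% lower). The medians by complex were -0.10 in I, 0.01 in II, -0.09 in III, -0.11 in IV and -0.07 in V. Ndufs6 had the lowest ratio, at 10 CPM with sgRNA-P2 against 13.1 in mock B cells (-0.38, interval -0.70 to -0.07), followed by Ndufs5 (-0.33, interval -0.84 to 0.16), Ndufb9 (-0.30) and Ndufa2 (-0.28). Ndufc2, Ndufa10, Atp5pb and Sdhd were highest, at 0.13, 0.10, 0.09 and 0.08, with intervals that include 0. Set directly against each other, sgRNA-P1 had lower levels than sgRNA-P2 in 64 of 75 genes (5091 of 10059 over all genes). The median was -0.11 (0.00 over all genes). Intervals lay below 0 in 21 genes (28%, against 9.55% of all genes) and above 0 in 1, Ndufa12 (13.7% of all genes). None was past 1.5-fold (0.298% of all genes higher, 0.119% lower). Atp5f1e differed most between the guides, at 38 CPM with sgRNA-P1 against 52.9 with sgRNA-P2 (-0.48, interval -0.62 to -0.34). These 3 comparisons share libraries, so they are not independent of each other.

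In T cells the ratios of sgRNA-P1 over mock were close to 0. The median log2 ratio was 0.04 (-0.02 over all 10007 genes). There were 52 genes higher and 24 lower, against 4155 and 5852 over all genes. The interval lay above 0 in 8 genes (10.5%, against 4.4% of all genes) and below 0 in 4 (5.26%, against 10.4%). None was past 1.5-fold, against 0.06% of all genes higher and 0.05% lower. The summed CPM ratio was 0.03 in complex I (interval 0.01 to 0.06), and 0.02 or less in the other complexes, with intervals that include 0. The medians by complex were 0.06 in I, 0.02 in II, 0.02 in III, 0.00 in IV and 0.08 in V. Of the 8 genes with an interval above 0, 5 were in complex V and 3 in complex I. Of the 4 below 0, 2 were in complex V, 1 in complex I and 1 in complex IV. Ndufb1 was highest, at 16.2 CPM with sgRNA-P1 against 13.4 in mock T cells (0.28, interval 0.07 to 0.48), followed by Ndufa3 (0.27), Ndufc1 (0.23) and Atp5f1e (0.19, at 63.1 CPM against 55.4). Cox5a, subunit 5A of cytochrome c oxidase, was lowest (-0.17, interval -0.34 to -0.01), followed by Ndufb7 (-0.13), Atp5mc2 (-0.11) and Ndufb10 (-0.10). Within complex I the 7 core subunits had a median of -0.01 and the 28 others 0.08.

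**Figure D3:**
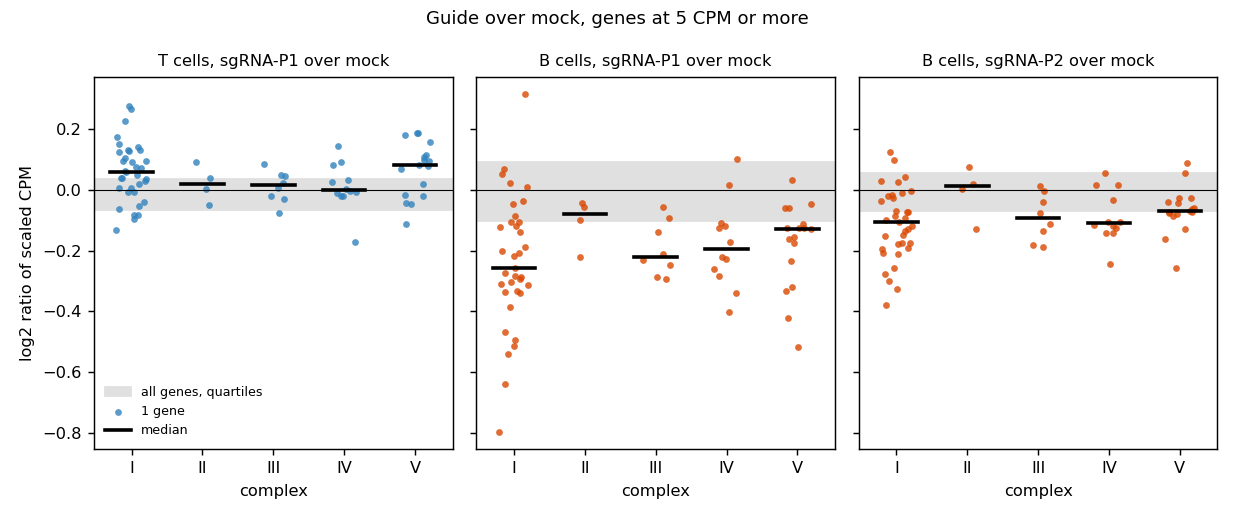
Log2 ratio of guide over mock for each gene at 5 CPM or more (points), by complex, for sgRNA-P1 in T cells and for sgRNA-P1 and sgRNA-P2 in B cells; thick lines are medians and the grey band spans the quartiles of all genes at 5 CPM or more. The medians of complexes I, III, IV and V lie below the band in sgRNA-P1 B cells, where Ndufs5 is lowest at -0.80.

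In the model over all 5 libraries the guide term, either guide against mock, called 0 of the 83 genes by edgeR's quasi-likelihood test with Benjamini-Hochberg adjustment (0.0284% of all genes, which is 5 genes). At an unadjusted p under 0.05 there were 2, Ndufs8 and Ndufa6 (-0.16 each), which is 2.41% of the 83 genes against 2.43% of all genes, and DESeq2 called 0 and had 0 at an unadjusted p under 0.05. This term assumes that both guides and both cell types share 1 difference from mock. In 7 of 76 genes (9.21%, against 3.32% of 9139 genes) the interval was above 0 in T cells and below 0 in B cells, namely Atp5f1e, Atp5mc3, Atp5mj, Atp5pd, Ndufa3, Ndufa13 and Ndufb1. Across the 76 genes the 2 ratios, which share no library, had a Pearson r of -0.48 and a Spearman rho of -0.42, against 0.01 and -0.02 across 9139 genes. This is a correlation across genes of 4 libraries, and genes are not independent replicates.

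**Figure D4:**
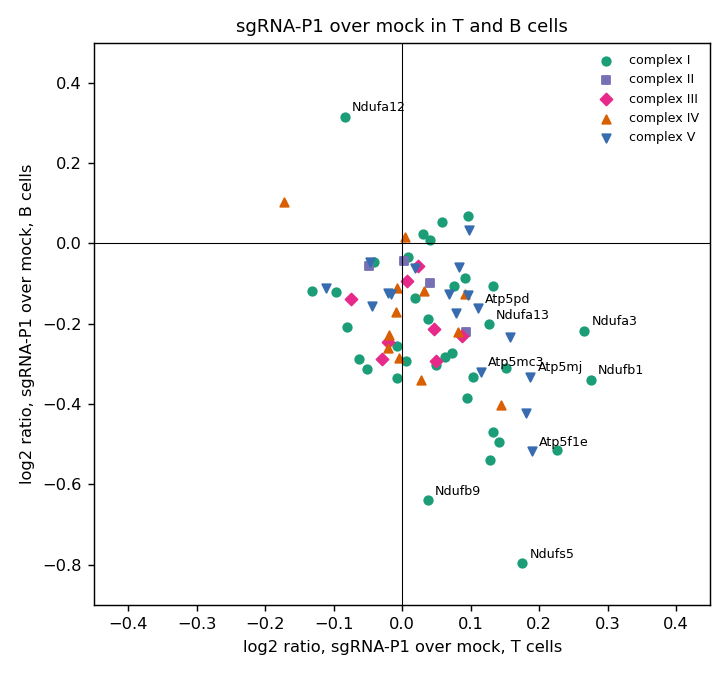
Log2 ratio of sgRNA-P1 over mock in T cells (x axis) and in B cells (y axis) for the 76 genes that reached 5 CPM, 1 point per gene, with shape and colour by complex. Most points lie below 0 on the B axis and near 0 on the T axis, with Ndufs5 at -0.80 and Ndufa12 at 0.32 on the B axis.

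Gene length and base composition moved with the ratios of both guides over mock in B cells. The respiratory chain genes at 5 CPM are short, with a median merged exon length of 1631 bases against 4440 over all genes, at a median GC content of 51.3% against 50.1%. In B cells the ratio of sgRNA-P1 over mock had a Spearman rho of -0.50 with GC content and 0.28 with length over all genes, and -0.33 and 0.43 among the respiratory chain genes. In T cells the same ratio had a rho of -0.22 with GC content and -0.07 with length over all genes, and -0.09 and -0.24 among the respiratory chain genes, so the sign with length was opposite to that in B cells. The part of length in the inverse relation of the T and B ratios was not tested. For sgRNA-P2 over mock in B cells the rho was -0.17 with GC content and 0.16 with length over all genes, and -0.29 and 0.405 among the respiratory chain genes. In the mock pair of T over B it was 0.10 with GC content and 0.02 with length over all genes, and -0.26 and 0.08 among the respiratory chain genes. In the sgRNA-P1 pair of T over B it was 0.18 and -0.05 over all genes, and -0.05 and -0.30 among the respiratory chain genes. After the trend on length and GC content over all genes was subtracted, the median in B cells was -0.13 with sgRNA-P1, and 66 of 74 genes were lower against 56.9% of all genes. It was -0.05 with sgRNA-P2 and 0.01 in sgRNA-P1 T cells. For T over B it was 0.22 in the mock pair and 0.37 in the sgRNA-P1 pair. With the trend subtracted, the medians in sgRNA-P1 B cells were -0.17 in complex I, -0.04 in II, -0.12 in III, -0.10 in IV and -0.12 in V, where complex IV had -0.20 before. In sgRNA-P1 T cells the median of complex III was -0.02 with the trend subtracted and 0.02 before.

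Mitochondrially encoded subunits were at higher levels in the guide libraries of B cells, where the nuclear ones were lower. In sgRNA-P1 B cells all 10 of these genes that reached 5 CPM were above mock B cells, at a median log2 ratio of 0.72, with sgRNA-P2 9 of 10 were above, at 0.20, and in sgRNA-P1 T cells 3 of 10 were above, at -0.04. mt-Nd6, a complex I subunit encoded on the light strand, had the highest ratio, at 560 CPM in sgRNA-P1 B cells, 332 in sgRNA-P2 B cells and 213 in mock B cells, and at 239 in sgRNA-P1 T cells against 213 in mock T cells. For T over B the model called 0 of 13 mitochondrially encoded subunits higher (32.4% of all genes) and 7 lower (53.8%, against 31.8%). Their median log2 ratio in the model was -0.42. Over the 10 that reached 5 CPM the median was 0.01 in the mock pair and -0.785 in the sgRNA-P1 pair. For complex I the summed TPM of the 7 mitochondrial genes over that of the nuclear genes was 8.12 in sgRNA-P1 T cells, 8.84 in mock T cells, 21.3 in sgRNA-P1 B cells, 13.2 in sgRNA-P2 B cells and 11.2 in mock B cells. For complex IV it was 9.77, 10.5, 18.7, 13.9 and 11.3 in the same order. The part of this share in the lower nuclear levels was not tested. With mitochondrial genes left out of the library sizes, the median of the nuclear genes in sgRNA-P1 B cells was -0.18, and -0.19 with them. That change shifts every gene by the same amount, set by the mitochondrial shares of the libraries, so it is no test of their part.

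**Figure D5:**
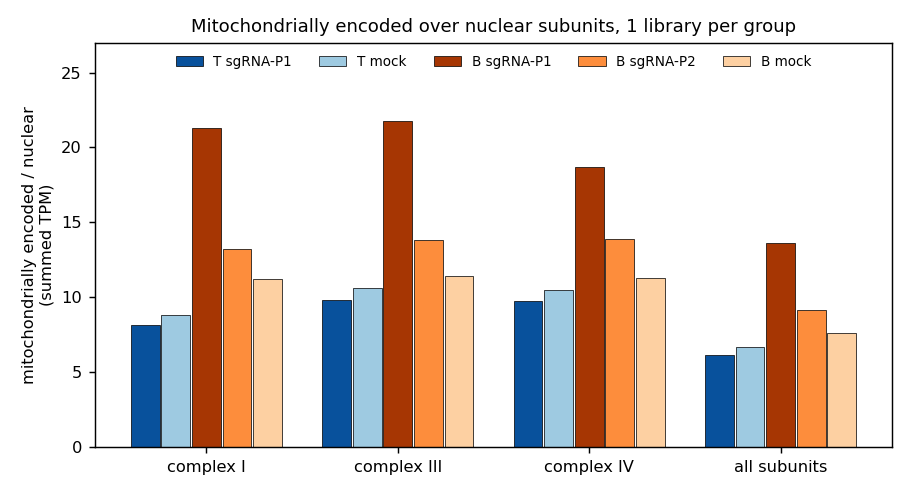
Summed TPM of mitochondrially encoded subunits divided by that of nuclear subunits (y axis, from 0) for complexes I, III and IV and for all subunits, with 1 bar per library and no error bars. sgRNA-P1 B cells have the highest bar in each, 13.6 over all subunits, against 7.64 in mock B cells.

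Other genes of the pathway were read the same way. In the model of T over B, where 32.4% of all genes were higher in T cells and 31.8% lower, 15 of 52 assembly factors tested were higher (28.8%) and 9 lower (17.3%), with a median of 0.02. Of 14 electron carrier genes 3 were higher (21.4%) and 4 lower (28.6%), with a median of 0.02, and of 16 transcriptional regulators 4 were higher (25%) and 8 lower (50%), with a median of -0.11. The shares higher in T cells were somewhat below that of all genes in these 3 lists, and no result is read from such small counts. For assembly factors the share lower in T cells (17.3%) was also below that of all genes (31.8%). Cmc1, an assembly factor of complex IV, was at 23 and 22.3 CPM in the T libraries against 6.49, 8.86 and 8.16 CPM in the B libraries, a log2 ratio of 1.53 (adjusted p = 1.65e-08 by edgeR). Lyrm7 and Uqcc5, assembly factors of complex III, were higher in T cells by 1.09 and 1.04. Called the other way were Sdhaf2, which helps to load the flavin of complex II (-0.67, adjusted p = 5.69e-08 by edgeR), and Acad9, an assembly factor of complex I (-0.53, adjusted p = 5.6e-06 by edgeR). Of 2 genes that act in making the heme of complex IV, Cox10 was higher (0.92) and Cox15 lower (-0.42) in T cells. Of the regulators, Ppargc1a, a coactivator of respiratory genes, had 3 and 7 reads in sgRNA-P1 and mock T cells against 218, 105 and 152 reads in sgRNA-P1, sgRNA-P2 and mock B cells, and was lower in T cells (log2 ratio -5.59, adjusted p = 7.65e-10 by edgeR), at less than 5 CPM in every library. Myc and Tfam, which packages and transcribes mitochondrial DNA, were lower in T cells at log2 ratios of -1.41 and -0.48, while Ppargc1b, the paralog of Ppargc1a, was higher at 0.96 (adjusted p = 5.29e-12, 2.51e-06 and 6e-06 by edgeR). Nrf1 and Gabpa did not pass the test (0.00 and -0.09). Coq4, Coq7 and Coq2, which make ubiquinone, were lower in T cells, at log2 ratios of -1.17, -0.98 and -0.47, while Coq9, of the same pathway, was higher (0.21, adjusted p = 0.0175 by edgeR). Cyc1, the cytochrome c1 subunit of complex III, has a symbol outside the rule and had 74.6 and 77.6 CPM in the T libraries against 63, 73.8 and 76.5 CPM in the B libraries (0.07, adjusted p = 0.383 by edgeR). Ribosomal protein genes gave 87 of 99 cytosolic genes higher in T cells (87.9%) and 6 lower (6.06%), with a median of 0.47, and 23 of 78 mitochondrial ones higher (29.5%) and 15 lower (19.2%), with a median of 0.04. In sgRNA-P1 B cells against mock the medians were -0.21 for 92 cytosolic ribosomal protein genes, -0.06 for 76 mitochondrial ones and -0.15 for 47 assembly factors, beside -0.19 for the respiratory chain genes.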

How the data were processed

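Poly(A) RNA of primary spleen T and B cells was deposited by the authors as a table of read counts per gene (10 columns, 5 groups). The tools named in the submitters' processing notes are HISAT2 (alignment) and featureCounts (counting), and the builds named there are mm39 and hg38; tool versions and the strand setting are not given in the sources at hand. Gene coordinates are those of the deposited table. Coordinates of the promoter windows are on GRCm38.p6, and positions are not comparable between them. The 2 columns of each group gave a mean chi-square per gene of 0.00231 to 0.00283 and were summed. For genes with fewer than 10 summed reads in a group, the count before division was worked out from the 2 columns. Between 72% and 74.8% of these recovered counts were even, and higher counts were not examined. Intervals were therefore computed on reads divided by 2, and they cover counting error only.

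CPM used TMM factors (edgeR 4.0.16, R 4.3.3). Log2 ratios added 1 read, used genes at 5 CPM or more in the higher library, and have exact conditional 95% intervals; a fold of 1.5 marks size. T and B cells were tested with edgeR's quasi-likelihood test on guide and cell type at an adjusted p of 0.05 (Benjamini-Hochberg), with DESeq2 1.42.0 as an alternative. The procedures were run on simulated data, for the cell type test without any guide difference, so that run does not cover guide effects. GC content was computed from mouse transcript sequences, as the median over the transcripts of a gene. It was found for 87 of the 92 genes, 16 of them through an older symbol. Promoters came from RefSeq (GRCm38.p6). Genes named are the 3 highest of each complex, the 4 highest and 4 lowest ratios of each comparison, those past 1.5-fold, isoform pairs and the Sdh genes; others were chosen after their values were seen. Not every gene the rule names is reported here. The genes and lists were chosen with earlier results of these data known. Other scalings, filters, priors, length and GC trends and left-out libraries were tried.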

Additional observations from a re-analysis of the deposited data

Results flagged for a closer look

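In 7 genes the counting interval of sgRNA-P1 over mock lay above 0 in T cells and below 0 in B cells; the difference between the cell types was not tested, and each value compares 1 library with 1 library. The log2 ratios were 0.115 in T cells and -0.320 in B cells for Atp5mc3, 0.189 and -0.518 for Atp5f1e, and 0.266 and -0.217 for Ndufa3. They were 0.126 in T cells and -0.201 in B cells for Ndufa13, 0.110 and -0.161 for Atp5pd, 0.275 and -0.339 for Ndufb1, and 0.187 and -0.332 for Atp5mj. Of the exon bases of Ndufa13, 30% overlap Tssk6, and of those of Ndufb1, 12.7% overlap Cpsf2.

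Outside the gene set, the copy Ndufa12-ps had 137 reads in sgRNA-P1 T cells against 110 in the deeper library of mock T cells, a log2 ratio of 1.167 (interval 0.625 to 1.699). Ndufa12 itself had 13.7 CPM in sgRNA-P1 T cells against 14.6 in mock T cells.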

How the results depend on the processing

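The medians over all respiratory chain genes kept their direction under the alternatives run. By complex, the median of complex III for sgRNA-P1 over mock in T cells turned to -0.021 with the length and GC trend subtracted, against 0.015 before; the cause was not tested. For sgRNA-P1 over mock in B cells the median was -0.22 when scaled by total reads, -0.174 and -0.156 at minimums of 1 and 20 CPM, -0.134 and -0.127 with the length trend and the length and GC trend subtracted, and -0.176 without mitochondrial genes in the library sizes. For sgRNA-P2 over mock it was -0.066 and -0.053 with the 2 trends subtracted, and for sgRNA-P1 over sgRNA-P2 -0.135 by total reads and -0.076 and -0.081 with the trends. For sgRNA-P1 over mock in T cells it was 0.057 by total reads and 0.017 and 0.013 with the trends. For mock T over mock B cells it was 0.190 and 0.224 with the trends. For the sgRNA-P1 pair it was 0.405 by total reads, 0.345 at 1 CPM, 0.295 with the length trend and 0.337 without mitochondrial genes. Leaving mitochondrial genes out of the library sizes shifts every gene of a comparison equally. The log2 ratio of the summed level of all 92 genes differed in size between TPM and CPM. For sgRNA-P1 over mock it was -0.213 by TPM and -0.156 by CPM in B cells, and 0.035 and 0.018 in T cells. For sgRNA-P2 over mock it was -0.075 and -0.066, and between the guides -0.138 and -0.090. In the mock pair it was 0.235 by TPM and 0.178 by CPM. Either column alone gave 0.041 for T cells, -0.195 for sgRNA-P1 and -0.083 for sgRNA-P2 in B cells, -0.111 to -0.110 between guides, 0.155 to 0.157 for the mock pair and 0.357 to 0.359 for the sgRNA-P1 pair. Because the 2 columns of a group behave as 1 divided library, these values had to come out nearly the same and are no check.

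Without sgRNA-P1 T cells the model called 22 genes between cell types, all among the 55, with 21.4% higher in T cells against 23.9% of all genes, so the excess of genes higher in T cells was not seen in that setting. Leaving out any other library it called 48 to 53, with 56% to 59% higher against 27% to 33.9% of all genes. Without sgRNA-P1 B cells, an alternative chosen after seeing the data, the count of genes with both T libraries above was 56 in place of 55. No paired analysis was possible because the 2 columns of a group behave as 1 divided library, so a number marks no separate sample. With 1 library a group, differences within 1.5-fold have no replicate check.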
